A study of Mus musculus with 9 samples.

Results

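The kidney makes the active form of vitamin D and returns filtered phosphate to the blood, and 10 of the 52636 genes counted in these mouse kidney libraries were followed for those tasks. They were taken by gene name: Cyp27b1, Cyp24a1, Vdr, Slc34a1, Slc34a3, Slc20a2, Kl, Fgfr1, Pth1r and Slc9a3r1. They were chosen by their kidney roles and selected on 1 measured value, the low Cyp27b1 level already seen in C59S. The C59S against WT values of these genes are therefore a description with no test, as is Cyp27b1 in C59A against C59S. All 10 were among the 17114 genes with enough reads to be tested.

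The study asked how altered NF-kB signalling affects the kidney and blood pressure, with 3 whole-kidney RNA libraries per genotype: wild type (WT) and the knock-ins C59A and C59S. Both alleles change the codon for cysteine 59 in Nfkb1, the gene of the p50 subunit of NF-kB, and both came with a PGK-neo selection cassette in a nearby intron. They were built in ES cells derived from C57BL/6NTac mice and injected into C57BL/6 blastocysts. The labels name C59A activated and C59S inactivated, while another label sentence orders their DNA binding the other way and gives alanine for both codon changes, so no direction was assumed. Age, sex, litter, zygosity and number of ES cell clones are not given in the sources used here. Nothing says that replicates are separate animals, so a p-value here speaks only of the variation among these libraries, part or all of which may be technical.

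Several features of the libraries bear on every comparison. Library totals ran from 16367403 to 25787659 counts, and 3 counts, taken as the detection floor, equalled 0.112 to 0.202 counts per 1e+06 (CPM, on totals scaled with TMM factors). Xist, the transcript that silences an X chromosome, was at 816 to 1276 CPM in WT and 885 to 895 in C59S but at 0.191 to 0.725 in C59A. The Y-linked gene Ddx3y was at 43.2 to 46.9 CPM in C59A and no higher than 0.810 in the other libraries. Genotype and sex of the libraries therefore cannot be told apart in any comparison with C59A. Mitochondrial genes took 16.4 to 19.6% of the counts in WT, 20.8 to 28.8% in C59A and 20.5 to 40.6% in C59S, the highest being C59S replicate 3. Summed adipose markers reached 564 CPM in C59S replicate 2 and 1180 in C59S replicate 3, beside 27.2 to 63.4 in WT, 156 to 234 in C59A and 152 in C59S replicate 1. Fabp4 made up most of that sum in every library. Adipoq, another of these markers, was at 4.05, 0.170 and 15.8 CPM in the C59A and 0.224, 42.3 and 39.8 in the C59S libraries. In WT it was no higher than 0.0503. Summed adrenal cortex markers were at 79.2 CPM in C59S replicate 2 and at 3.04 to 5.98 in the other libraries. The part of either tissue in the results was not tested. In whole tissue, fewer cells of a type and less RNA per cell cannot be told apart.

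Vitamin D from skin or diet is hydroxylated in the liver, and the proximal tubule then adds the hydroxyl group that makes the active hormone. Parathyroid hormone favours that step, while FGF23, a phosphate-lowering hormone from bone that needs the co-receptor Klotho, represses it and favours breakdown of the hormone. Both hormones also withdraw sodium-phosphate carriers from the brush border of the proximal tubule, so the same cells set vitamin D activation and phosphate loss in the urine.

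The promoters shown here belong to the activating hydroxylase, whose C59S level chose the members, and to the pair of brush-border phosphate carriers. RefSeq windows (build GRCm38.p6) were held for 7 of the 10 genes, and Cyp24a1, Slc20a2 and Fgfr1 had none. Each sequence is the 250 bases before the RefSeq start, 5′ to 3′ on the strand of the gene, and capitals mark a match on either strand to one of the motifs listed after the sequences. The RefSeq starts can differ from the gene bounds used for the counts, which are given with each gene below. The Slc34a1 window lies wholly inside those bounds, and the Slc34a3 window partly inside.
Cyp27b1, chr10:127047996-127048245, plus strand: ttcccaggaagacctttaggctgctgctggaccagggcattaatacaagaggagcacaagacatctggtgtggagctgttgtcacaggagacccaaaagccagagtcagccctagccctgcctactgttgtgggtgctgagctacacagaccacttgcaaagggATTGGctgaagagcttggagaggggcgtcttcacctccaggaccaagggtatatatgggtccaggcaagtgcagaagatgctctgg
Slc34a1, chr13:55399398-55399647, plus strand: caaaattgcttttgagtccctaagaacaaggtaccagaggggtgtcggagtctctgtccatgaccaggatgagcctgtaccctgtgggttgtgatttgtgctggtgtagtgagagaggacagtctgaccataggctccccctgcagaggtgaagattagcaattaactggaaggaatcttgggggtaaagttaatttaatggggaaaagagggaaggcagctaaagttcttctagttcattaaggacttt
Slc34a3, chr2:25234235-25234484, minus strand: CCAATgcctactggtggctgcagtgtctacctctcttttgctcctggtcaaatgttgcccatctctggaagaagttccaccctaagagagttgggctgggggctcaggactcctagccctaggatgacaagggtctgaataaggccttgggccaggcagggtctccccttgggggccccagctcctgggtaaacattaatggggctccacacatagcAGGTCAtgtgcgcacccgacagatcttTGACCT

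The motifs searched were AGGTCA, a core element of nuclear receptor sites, found in 14.0% of the 32851 promoter windows of this length, and TGACG, the core of cAMP response elements, in 17.8%. The others were CCAAT in 33.9% of windows, TATAA in 22.8% and the NF-kB site in 3.90%. The Slc34a3 window held AGGTCA 33 bases before the start and again on the opposite strand 6 bases before it, and CCAAT at its far end, 250 bases before the start. Cyp27b1 held CCAAT on the opposite strand 86 bases before the start. Among the windows not printed, Slc9a3r1 held CCAAT on the opposite strand at 127 and 77 bases, and the first of 3 Pth1r windows held TGACG at 161 bases on the opposite strand and CCAAT at 25 bases. The Slc34a1, Vdr and Kl windows held none of these motifs, and no member's window held the letters of the NF-kB site. A match describes the letters only.

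The members covered a wide range of RNA levels, which can be compared between genes as FPKM, reads per length and library size. In WT the order was Slc34a1 at 1389 ± 14.7 FPKM, Pth1r at 175 ± 9.70, Slc9a3r1 at 136 ± 39.8, Slc34a3 at 52.5 ± 7.99, Kl at 39.5 ± 7.68, Cyp24a1 at 27.7 ± 20.8, Vdr at 24.1 ± 3.43, Fgfr1 at 7.97 ± 0.246, Slc20a2 at 4.31 ± 0.172 and Cyp27b1 at 3.89 ± 0.609 (SD, n = 3). Slc34a1 stood at rank 19 of the tested genes in WT. The WT libraries of Pth1r and Slc9a3r1 overlapped, as did those of Slc34a3 with Kl, Kl with Cyp24a1, Cyp24a1 with Vdr, and Slc20a2 with Cyp27b1. The remaining neighbours did not.

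**Figure D1:**
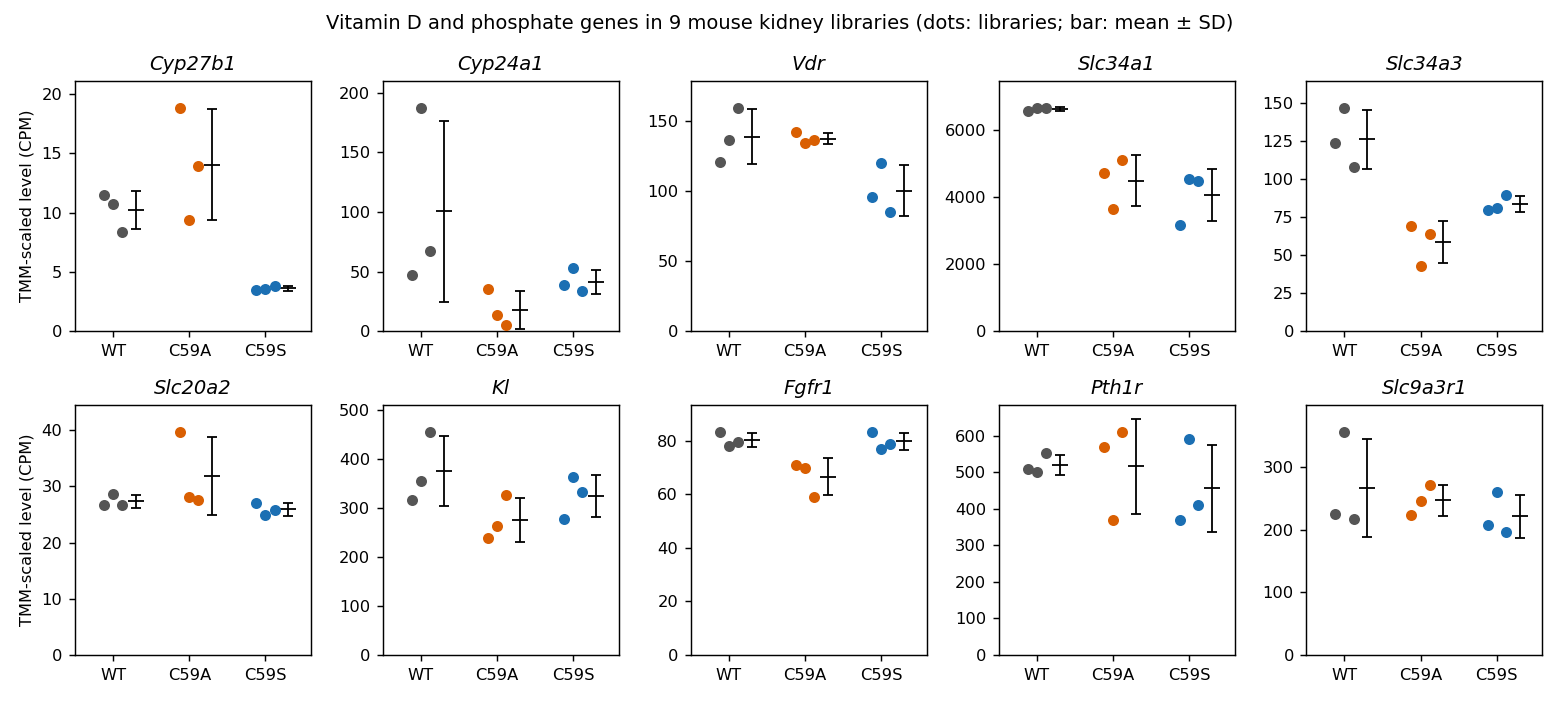
Levels of the 10 genes in CPM (vertical axes from 0) in the 3 libraries of each genotype, as dots, with the mean and SD as a bar beside them. Cyp27b1 lies between 3.47 and 3.85 CPM in C59S, and Slc34a1 and Slc34a3 lie below every WT library in both knock-in genotypes.

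Slc34a3 was the 1 member called in C59A against WT, and it was lower. At an adjusted p under 0.05 (edgeR quasi-likelihood test, Benjamini-Hochberg over all genes tested), 5.7% of all tested genes were called in this comparison. With DESeq2 the called members were 3 (Cyp24a1, Slc34a1 and Slc34a3), where 9.09% of the genes tested were called. For 4 members, Cyp24a1, Slc34a1, Slc34a3 and Fgfr1, the C59A libraries did not overlap WT, all lower, and 24.6% of all genes had groups that did not overlap. The median log2 difference of the members was -0.19, against -0.02 over all tested genes. The level was lower in C59A for 8 members and higher for 2, and 52.4% of all genes were lower. Of the 975 called genes 554 were higher and 421 lower, and with library totals as the only scaling, where the median over all tested genes was -0.26, 216 were higher and 863 lower. Slc34a3 was called on that scale too, at -1.33.

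In C59S against WT, the comparison that chose the members, no gene was called by edgeR (0 of 17114, or 0%), though the unadjusted p was under 0.05 for 3093. DESeq2 called 636 genes and limma voom 0, and edgeR called 737 without WT replicate 3 and 33 without C59S replicate 1. Groups did not overlap for 4 members, all lower in C59S (Cyp27b1, Vdr, Slc34a1 and Slc34a3), and for 22.5% of all genes. All 10 members had a negative log2 difference, as did 48.9% of all genes. The median of the members was -0.37, beside 0.01 over all genes. C59S and WT libraries of the same replicate number in the titles deviated together. The library names in the labels carry other numbers, which do not match within these pairs. A fit of those libraries with the replicate number as a block called 638 genes (3.82%), and calls of members in it are not given. Nothing is read from these counts, since the choice of members used this contrast.

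In C59A against C59S, 5.91% of all genes were called and 29.3% had groups that did not overlap. Cyp27b1, which chose the members by its C59S level, is left aside here, and edgeR called no other member. Groups did not overlap for Vdr and Slc20a2, which were higher in C59A, and for Slc34a3 and Fgfr1, which were lower. The median of the members was 0.15, against -0.01 over all genes. The 3 comparisons share their libraries pairwise and are not independent of each other.

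**Figure D2:**
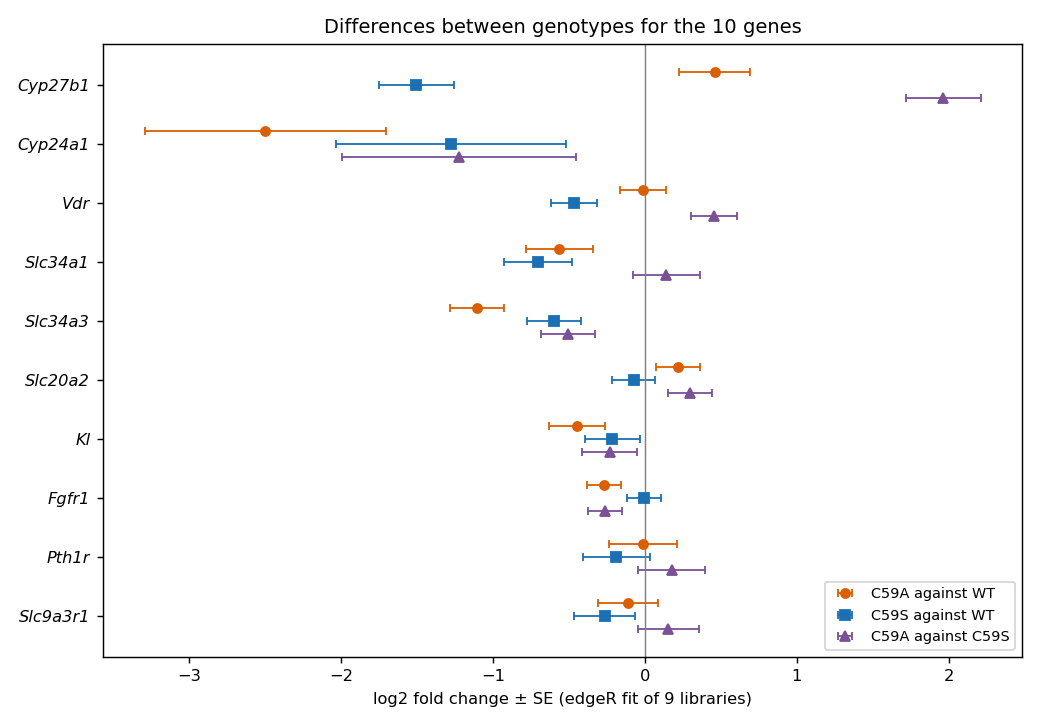
Log2 fold change with its standard error (horizontal axis) for each of the 10 genes in the 3 comparisons of genotypes. Slc34a3 in C59A against WT lies at -1.11. The values of C59S against WT, and of Cyp27b1 in C59A against C59S, are drawn as a description, and their error bars are not to be read as a test.

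Cyp27b1 encodes the mitochondrial hydroxylase that completes active vitamin D. The gene lies on chromosome 10 from 127048250 to 127053006 (GRCm38, plus strand). Its level was 11.5, 10.8 and 8.39 CPM in the WT, 18.8, 9.41 and 13.9 in the C59A and 3.47, 3.52 and 3.85 in the C59S libraries. The C59S libraries lay close together and below all the others, while WT and C59A overlapped. These values rest on 176 to 273 reads per library in WT, 166 to 312 in C59A and 57 to 93 in C59S. As a description, the log2 difference was -1.50 in C59S against WT and 1.96, or 3.89-fold, in C59A against C59S. In C59A against WT it was 0.46 ± 0.23 (SE) and did not pass the test (adjusted p = 0.291).

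Cyp24a1 encodes the enzyme that inactivates the hormone, and its gene is itself a target of the vitamin D receptor (chromosome 2, 170482708 to 170497145, minus strand). Its level was 46.9, 187 and 67.6 CPM in the WT, 35.4, 13.3 and 5.10 in the C59A and 38.5, 52.6 and 33.3 in the C59S libraries. WT replicate 2 stood far above the other libraries, and the C59A libraries spread from 5.10 to 35.4 but all lay below WT. C59A was lower than WT by a log2 difference of -2.50 ± 0.79, which did not pass the test (edgeR adjusted p = 0.132). Without WT replicate 2 that difference was -1.69 (adjusted p = 0.292), without C59A replicate 1 it was -3.46 (adjusted p = 0.0736), and DESeq2 on all libraries gave an adjusted p of 0.0255. C59A against C59S differed by -1.22 ± 0.77 (adjusted p = 0.404), or -2.18 without C59A replicate 1. C59S against WT differed by -1.28 ± 0.75, and by -0.46 without WT replicate 2.

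Set per length against each other, RNA of the degrading enzyme exceeded RNA of the activating one in every WT and C59S library. The FPKM ratio of Cyp24a1 to Cyp27b1 was 2.95, 12.6 and 5.83 in the WT libraries and 8.02, 10.8 and 6.27 in those of C59S. In C59A it was 1.36, 1.02 and 0.265, below every library of the other genotypes. The ratio carries the Cyp27b1 values used in choosing the genes and was not tested.

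**Figure D3:**
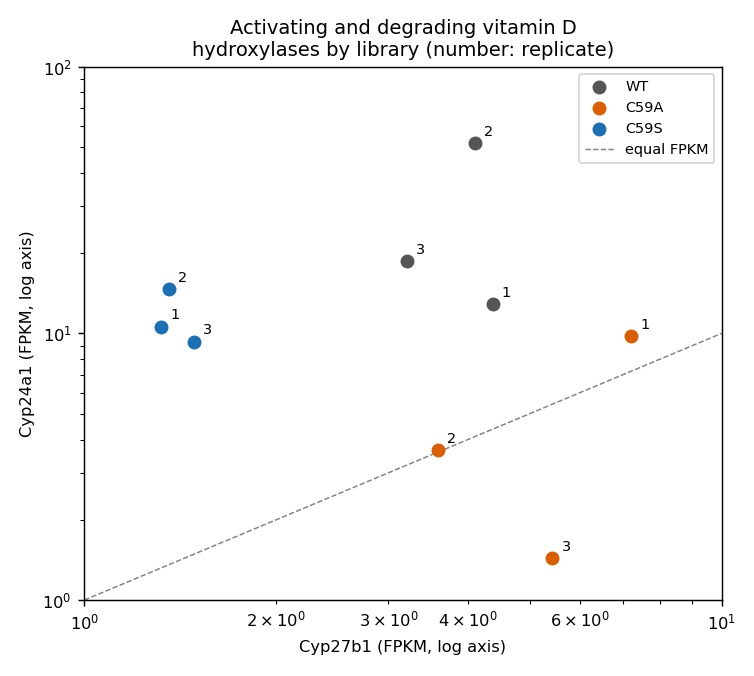
Cyp24a1 against Cyp27b1 in FPKM, both on log axes, with 1 numbered point per library and a dashed line of equal FPKM. The C59S points sit at the left with Cyp27b1 from 1.32 to 1.49 FPKM, and C59A replicate 3 is the only point below the line.

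Vdr encodes the nuclear receptor of active vitamin D (chromosome 15, 97854425 to 97910630, minus strand). Its level was 121, 136 and 159 CPM in the WT, 142, 134 and 136 in the C59A and 95.7, 119.9 and 85.1 in the C59S libraries. WT and C59A overlapped, whereas C59S lay below both, with C59S replicate 2 just under WT replicate 1. C59A against WT differed by -0.01 ± 0.15 (edgeR adjusted p = 0.972). C59A exceeded C59S by 0.45 ± 0.15, which edgeR did not call (adjusted p = 0.103), but DESeq2 (adjusted p = 0.0479) and limma voom (adjusted p = 0.0468) did. C59S against WT differed by -0.47 ± 0.15.

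Of the other genes that supply vitamin D or work with its receptor, a list of 20 (liver-type hydroxylases, uptake receptors, binding protein, receptor partners and co-regulators), 19 could be tested. In C59A against WT 1 was lower and none higher, with a list median of -0.15. The gene that fell was Gc, the vitamin D binding protein of plasma, at 42.1, 63.7 and 60.3 CPM in the WT, 20.2, 17.2 and 23.5 in the C59A and 38.3, 51.9 and 59.9 in the C59S libraries. All C59A libraries lay below all others, by -1.45 ± 0.20 against WT (adjusted p = 0.00240) and -1.30 ± 0.20 against C59S (adjusted p = 0.00437). In C59A against C59S the co-repressor gene Ncor1 was also called, higher by 0.44 ± 0.11 (adjusted p = 0.0379), but the call was lost in each of the 6 fits without 1 library of these groups, at adjusted p from 0.0580 to 0.168. Lrp2, the megalin receptor that takes up filtered binding protein, was at 1209 ± 191, 809.8 ± 222 and 856 ± 154 CPM in WT, C59A and C59S (mean ± SD, n = 3), and C59A against WT did not pass the test (-0.58 ± 0.23, adjusted p = 0.175).

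Calcium channels, calcium-binding proteins and other receptor targets formed a list of 15, of which 14 were tested. In the edgeR fit of C59A against WT 1 was higher and none lower, and the list median was -0.34. The higher gene was Cebpb, a transcription factor of inflammation and metabolism, at 14.7, 18.9 and 17.4 CPM in the WT, 32.7, 32.5 and 34.3 in the C59A and 15.6, 17.6 and 21.0 in the C59S libraries. C59A lay above all other libraries, by 0.96 ± 0.14 against WT (adjusted p = 0.00250) and 0.88 ± 0.14 against C59S (adjusted p = 0.00436). S100g, the small calcium-binding protein of the distal tubule, was at 1159 ± 513 CPM in WT, 627 ± 243 in C59A and 1070.1 ± 97.4 in C59S. Its C59A against WT difference of -0.89 ± 0.32 did not pass the test (adjusted p = 0.145). The calcium channel Trpv5 was at 13.5 ± 4.35, 7.68 ± 1.41 and 10.96 ± 2.53 CPM in the same order (C59A against WT -0.81 ± 0.25, adjusted p = 0.0847). DESeq2 called S100g, Trpv5, Slc8a1 and Spp1 of this list in C59A against WT, as did edgeR with library totals alone, each lower in C59A. Both S100g and Trpv5 are genes of the distal convoluted and connecting tubule. The 4 markers of those segments outside this list summed to 2665 to 3851 CPM in WT, 1165 to 1672 in C59A and 1719 to 1905 in C59S, and their part in these values was not tested. Slc12a3 made up most of that sum in every library. In C59A against WT, edgeR called Slc12a3, Pvalb and Wnk1 lower and did not call Trpm6. In C59S against WT it called none, at -0.86 for Slc12a3, -0.43 for Wnk1, -0.36 for Trpm6 and 0.003 for Pvalb.

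Slc34a1, the main sodium-phosphate carrier of the proximal brush border, was lower in both knock-in genotypes than in any WT library (chromosome 13, 55398187 to 55415592, plus strand). Its level was 6560.5, 6649.7 and 6662.6 CPM in the WT, 4720.1, 3632 and 5108 in the C59A and 3161, 4549 and 4489.7 in the C59S libraries. The WT libraries lay close together, while those of C59A and C59S spread widely and overlapped each other. The difference was -0.56 ± 0.22 in C59A against WT, which edgeR did not call (adjusted p = 0.173) and DESeq2 did (adjusted p = 0.0328). It was -0.70 ± 0.22 in C59S against WT and 0.14 ± 0.22 in C59A against C59S (adjusted p = 0.759). The rank of its mean FPKM moved from 19 in WT to 38 in C59A and 39 in C59S.

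Slc34a3 encodes the second carrier of that family in the brush border, and loss of the human gene causes a phosphate-wasting rickets with raised active vitamin D (chromosome 2, 25228898 to 25234364, minus strand). Its level was 124, 147 and 108 CPM in the WT, 69.4, 42.7 and 63.8 in the C59A and 79.7, 81.1 and 89.5 in the C59S libraries. The groups did not overlap in any pair: WT was highest and C59A lowest. C59A was 2.15-fold lower than WT, a log2 difference of -1.11 ± 0.18 (edgeR adjusted p = 0.00438). That call held in each of the 18 alternatives tried, with differences from -1.33 to -0.92 and adjusted p from 2.29e-06 to 0.0355. C59A against C59S differed by -0.51 ± 0.18 and was not called (adjusted p = 0.118), although without the filter on low counts it was (adjusted p = 0.0482). C59S against WT differed by -0.60 ± 0.18.

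Only Slc34a1 and Slc34a3 of the 10 members lay below every WT library in all 6 knock-in libraries, and 655 genes (3.83%) did so. No member lay above every WT library in all 6, and 557 genes (3.25%) did. Slc34a1 exceeded Slc34a3 per length by ratios of 26.8, 22.8 and 31.1 in the WT libraries, 34.3, 42.9 and 40.4 in those of C59A, and 20.0, 28.3 and 25.3 in those of C59S. The ratio was higher in every C59A library than in any other library.

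Both carriers are made by the proximal tubule, and the levels of its markers differed between genotypes as well. The summed level of 11 proximal markers was 10406, 11037 and 11047 CPM in the WT, 8371, 6076 and 10227 in the C59A and 6486, 9628 and 8580 in the C59S libraries, so all 6 knock-in libraries lay below WT. Miox and Slc22a8 made up most of that sum in WT. The 11 did not all go the same way in C59A against WT. Slc22a6 was called higher (0.91, edgeR adjusted p = 0.0312), and Slc5a2 (-1.44, adjusted p = 0.00412) and Slc7a7 (-1.31, adjusted p = 0.0105) were called lower. Of those not called, Acsm2, Aqp1 and Hnf4a were higher and the rest lower. The full list of 14 adds Kap, Slc7a13 and Cyp2e1, which were far higher in C59A and were left out of the 11 as sex-biased genes. Its sum was 14054 to 19512 CPM in WT, 35868 to 45048 in C59A and 14939 to 20182 in C59S. Kap alone was at 26056, 37535 and 33193 CPM in the C59A libraries, most of that sum. It was at 2941 to 8385 CPM in WT and 6249 to 13660 in C59S. Per 1000 CPM of the 11 markers, Slc34a1 was at 630.4, 602 and 603 in the WT libraries, 564, 598 and 499 in those of C59A, and 487, 472 and 523 in those of C59S. Slc34a3 on that scale was 11.9, 13.3 and 9.79 in the WT libraries, 8.29, 7.02 and 6.24 in those of C59A, and 12.3, 8.43 and 10.4 in those of C59S. On it Slc34a3 in C59A stayed below every WT library, whereas C59S and WT overlapped. Over the sum of all 14 markers, which was mostly Kap in C59A, the Slc34a3 groups did not overlap. They were at 6.57 to 7.70 in WT, 0.958 to 1.93 in C59A and 3.95 to 5.99 in C59S. Those of Slc34a1 on that sum were 341 to 474, 81.6 to 132 and 157 to 301 in the same order. The order of the groups for Cyp27b1 and Pth1r changed with the choice of sum: C59A lay above WT over the 11 markers and below WT over all 14.

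**Figure D4:**
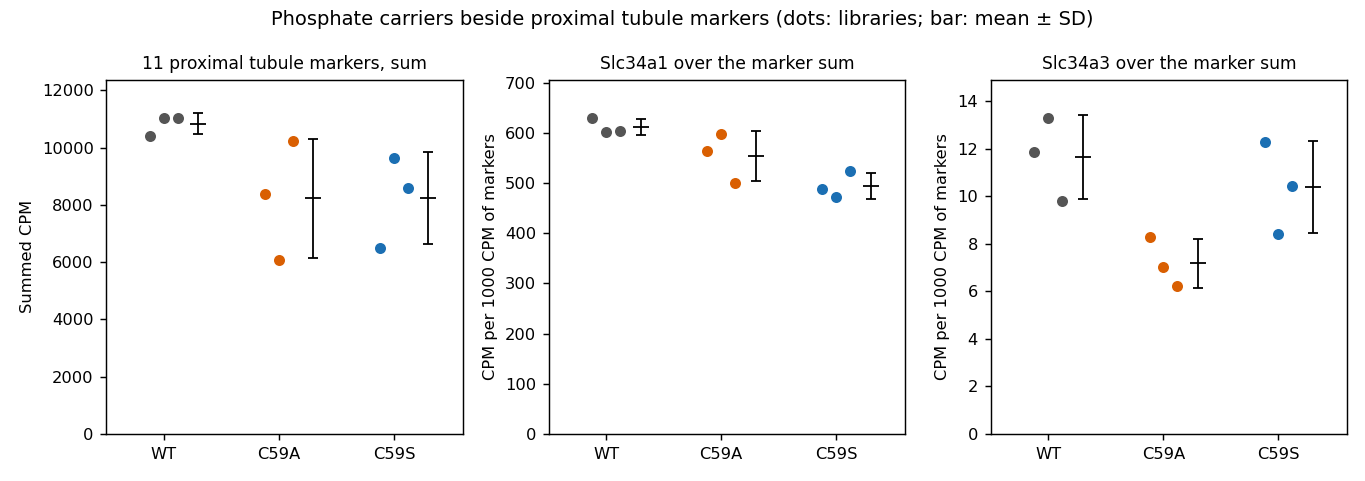
Summed CPM of 11 proximal tubule markers (left), and Slc34a1 (middle) and Slc34a3 (right) in CPM per 1000 CPM of that sum, for the 3 libraries of each genotype as dots with the mean and SD. Slc34a3 per marker sum reaches 8.29 in C59A and is at least 9.79 in WT.

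Slc20a2 is a broadly expressed phosphate carrier of another family (chromosome 8, 22476788 to 22569612, plus strand). Its level was 26.7, 28.6 and 26.7 CPM in the WT, 39.8, 28.2 and 27.6 in the C59A and 27.1, 24.9 and 25.8 in the C59S libraries. C59A replicate 1 stood above the other 8 libraries, which lay between 24.9 and 28.6. No comparison passed the test, with 0.22 ± 0.14 in C59A against WT (edgeR adjusted p = 0.420) and 0.29 ± 0.14 in C59A against C59S (adjusted p = 0.251). C59S against WT differed by -0.07 ± 0.14. Per length, Slc34a1 exceeded Slc20a2 by 309 to 332 in WT, 158 to 246 in C59A and 155 to 243 in C59S.

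The further phosphate transport genes formed a list of 10, of which 9 were in the tables and 8 were tested, and edgeR called none in C59A against WT (list median -0.18). In C59A against C59S 1 was higher and none lower. It was Slc17a1, an apical anion carrier first described as a phosphate carrier, at 197 ± 27.2 CPM in WT, 292 ± 57.2 in C59A and 165 ± 26.02 in C59S (0.82 ± 0.18, adjusted p = 0.0259). The call was lost without C59A replicate 1 (adjusted p = 0.110), C59A replicate 3 (0.0863), C59S replicate 1 (0.0538) or C59S replicate 3 (0.119). In C59A against WT its difference of 0.57 ± 0.18 was not called (adjusted p = 0.0967), but was with DESeq2, with no filter or without C59A replicate 2. Xpr1, the phosphate exporter, was at 40.8 ± 7.22, 45.0 ± 6.52 and 37.7 ± 2.91 CPM in WT, C59A and C59S, with C59A against WT at 0.14 ± 0.15 (adjusted p = 0.651).

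Slc9a3r1 encodes the PDZ scaffold NHERF1, which holds Slc34a1 protein and the parathyroid hormone receptor at the brush border (chromosome 11, 115163341 to 115181181, plus strand). Its level was 225, 357 and 217 CPM in the WT, 223, 246 and 272 in the C59A and 208, 261 and 197 in the C59S libraries. WT replicate 2 was highest and the groups overlapped in every pair. C59A against WT differed by -0.11 ± 0.20 (edgeR adjusted p = 0.813), C59A against C59S by 0.15 ± 0.20 (adjusted p = 0.699), and C59S against WT by -0.26 ± 0.20. Of 11 other genes of the apical scaffold and of sodium-proton exchange, all tested, 1 was lower in C59A against WT and none higher (list median -0.08). It was Sgk1, a kinase that raises sodium transport, at 142, 141 and 193 CPM in the WT, 86.0, 62.5 and 74.0 in the C59A and 98.0, 94.1 and 108 in the C59S libraries. The C59A libraries were below all others, by -1.10 ± 0.16 against WT (adjusted p = 0.00266), and C59A against C59S did not pass the test (-0.43 ± 0.16, adjusted p = 0.133).

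Pth1r encodes the receptor of parathyroid hormone (chromosome 9, 110722085 to 110747145, minus strand). Its level was 509.8, 500.7 and 552 CPM in the WT, 569.9, 368 and 612 in the C59A and 369, 592 and 409 in the C59S libraries. C59A replicate 2 and C59S replicates 1 and 3 were low, and the groups overlapped in every pair. The difference was -0.01 ± 0.22 in C59A against WT (edgeR adjusted p = 0.984), 0.18 ± 0.22 in C59A against C59S (adjusted p = 0.687) and -0.19 ± 0.22 in C59S against WT.

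Kl encodes Klotho, the co-receptor that lets FGF23 act on the kidney (chromosome 5, 150952607 to 150993817, plus strand). Its level was 317, 354 and 456 CPM in the WT, 238, 262 and 326 in the C59A and 277, 362 and 332 in the C59S libraries. The ranges overlapped in every pair, with the lowest library in C59A and the highest in WT. The difference was -0.45 ± 0.18 in C59A against WT (edgeR adjusted p = 0.188), -0.23 ± 0.18 in C59A against C59S (adjusted p = 0.490) and -0.21 ± 0.18 in C59S against WT.

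Fgfr1, the receptor that pairs with Klotho, lies on chromosome 8 from 25513654 to 25575718 (plus strand). Its level was 83.2, 78.2 and 79.5 CPM in the WT, 71.1, 70.0 and 58.9 in the C59A and 83.5, 77.1 and 78.9 in the C59S libraries. WT and C59S libraries coincided, and all C59A libraries lay below both. The difference did not pass the test, at -0.27 ± 0.11 in C59A against WT (edgeR adjusted p = 0.195) and -0.26 ± 0.11 in C59A against C59S (adjusted p = 0.192). C59S against WT differed by -0.01 ± 0.11. Per length Kl exceeded Fgfr1 by 4.03 to 6.07 in WT, 3.55 to 5.86 in C59A and 3.51 to 4.98 in C59S.

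Other genes of parathyroid hormone and FGF23 signalling formed a list of 25, of which 18 were tested. In C59A against WT 2 were lower and none higher (list median -0.28), and in C59A against C59S 1 was lower. Lctl, a relative of Klotho, was at 7.54, 5.33 and 6.53 CPM in the WT, 2.35, 2.04 and 1.76 in the C59A and 4.63, 3.92 and 6.01 in the C59S libraries. C59A lay below all other libraries, by -1.66 ± 0.25 against WT (adjusted p = 0.00323) and -1.24 ± 0.25 against C59S (adjusted p = 0.0171). The call against C59S was lost without C59A replicate 3 (adjusted p = 0.0758) or C59S replicate 3 (0.0761). Dusp6, a phosphatase induced by FGF signalling, was lower in C59A against WT by -0.60 ± 0.16 (adjusted p = 0.0497). That call was lost without WT replicate 2 (adjusted p = 0.130) or without C59A replicate 1 (0.122), 2 (0.0628) or 3 (0.175).

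In the edgeR fit of 9 libraries no other FGF receptor was called in any comparison, but several were in alternatives. Fgfr3 was at 105.7 ± 32.2, 65.1 ± 6.46 and 70.6 ± 10.1 CPM in WT, C59A and C59S (C59A against WT -0.70 ± 0.21, adjusted p = 0.0794), a difference called with DESeq2, voom, no filter, library totals alone or without WT replicate 3. Fgfr4 was at 79.2 ± 16.3, 63.4 ± 4.01 and 55.1 ± 5.47 CPM (C59A against WT -0.32 ± 0.15, adjusted p = 0.250). Without WT replicate 3, Fgfr3 and Fgfr4 were called in C59S against WT, and Fgfr2 was called in C59A against WT without WT replicate 2. The hormones were at or near 0, with 3 reads of Fgf23, all in C59S replicate 2, and 1 read of Pth, in C59A replicate 2. A last list of 11 genes of calcium sensing and other inputs held no gene called by the edgeR fit of 9 libraries in any comparison. DESeq2 called Ghr in C59A against WT, and Calcrl, Hnf4a, Igf1 and Stc2 in C59A against C59S.

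Across the 6 lists, 81 genes besides the members were tested, and 1 was higher and 4 were lower in C59A against WT (6.17%, beside the 5.7% of all genes). In C59A against C59S 3 were higher and 2 lower (6.17%, beside 5.91%). In C59S against WT the edgeR fit of 9 libraries called no list gene, and DESeq2 called 8. The share of all genes that DESeq2 called in this comparison is not given, so nothing is read from the 8.

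Genes whose levels followed a member most closely were ranked by Pearson's r of log2 CPM over the 9 libraries among 13407 protein-coding genes, as a description in which all points share the 3 genotypes. For Cyp27b1 they were Pyroxd2 (r = 0.969), Mast3 (0.968), Rars2 (0.965), Asb13 (0.962) and Acadvl (0.961). Mast3, for example, was at 54.0 to 57.3 CPM in WT, 61.5 to 70.3 in C59A and 38.7 to 39.7 in C59S. For Slc34a1 they were Agxt2 (0.977), Maf (0.965) and Prkag2 (0.964). Agxt2, a mitochondrial aminotransferase, was at 78.9 to 81.0 CPM in WT, 47.9 to 57.6 in C59A and 41.9 to 58.7 in C59S. For Kl they were Malrd1 (0.974), Dcxr (0.939) and Slc40a1 (0.936), the last being the iron exporter ferroportin. Among the members themselves, the highest r was 0.794 between Cyp24a1 and Slc34a3, followed by 0.775 between Cyp24a1 and Fgfr1, 0.730 between Slc34a1 and Slc34a3, and 0.725 between Cyp27b1 and Vdr.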

How the data were processed

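RNA was measured in 9 kidney libraries, with groups taken from the genotype label. The 10 members and the gene lists were chosen with earlier results of these data known. Per the submitters' processing notes, tools were CASAVA 1.8, fastp, HISAT2 2.0.5, featureCounts 1.5.0-p3 and DESeq2 1.20.0 with build GRCm38, and RNA was taken with TRIzol for NEBNext Ultra libraries, per the labels' protocols. The deposited counts are raw whole numbers per gene. The authors' deposited FPKM equal counts over gene length and 1 constant per library (0.802 to 1.15 times its total). Strand setting and annotation release are not given in the sources used here, so overlapping genes may share reads.

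Counts were filtered (filterByExpr, 17114 genes kept), scaled with TMM factors (0.797 to 1.12) and fitted in 1 model of all 9 libraries with edgeR 4.0.16 in R 4.3.3 (quasi-likelihood test, Benjamini-Hochberg adjustment, called at adjusted p under 0.05). Standard errors were derived from the F statistic and the fold change. The fit was tested on simulated data. Alternatives used DESeq2 1.42.0, limma 3.58.1 (voom, or log2 of FPKM plus 1 or 0.1), other scaling or filters, a replicate block, or left out each library. Libraries of a genotype differed by a chi-square per degree of freedom of 22.4 or more, so none was a duplicate. Same-numbered C59S and WT libraries, numbered in the titles, correlated in their deviations from the group means (0.318, 0.195 and 0.256), and a paired fit of the pair was added after seeing this. The labels state no shared litter or day, and the library names in them carry numbers that do not match within these pairs.

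The rule for named genes took all members, up to 4 called genes of smallest p per list in each comparison with C59A, and the 5 (Cyp27b1) or 3 (Slc34a1, Kl) genes of highest r with at least 1 CPM on average. Lrp2, S100g, Trpv5, Xpr1, Slc8a1, Spp1, Fgfr2, Fgfr3, Fgfr4, Ghr, Calcrl, Hnf4a, Igf1, Stc2, Fgf23, Pth and the library markers were named after their values were seen. The 3 proximal markers left out of the trimmed sum, and the printed promoters of Slc34a1 and Slc34a3, were also chosen then. Some genes that other tests called are not reported here.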

Additional observations from a re-analysis of the deposited data

How the results depend on the processing

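The sign, or the call where a test is given, changed in at least 1 alternative for 11 of the 30 differences of the members. In C59S against WT, and for Cyp27b1 in C59A against C59S, only a changed sign was counted. Slc34a3 in C59A against WT was called in each of the 18 alternatives. Cyp24a1 in C59A against WT passed only with DESeq2, and Cyp27b1 in that comparison in none (0.20 to 0.68, adjusted p from 0.0840 to 0.702). For the genes called in C59A against WT (975), DESeq2 gave 1567, log2(FPKM + 1) with no filter 475, and leaving out 1 library 502 to 852. Members called there numbered 3 with DESeq2, and list genes (5) numbered 12 with library totals alone, 10 with no filter, 14 with DESeq2, 8 with voom and 4 to 8 without 1 library. For C59S against WT (0 genes), library totals gave 20, no filter 308, DESeq2 636, log2(FPKM + 1) with no filter 2, and leaving out 1 library 0 to 737, where WT replicate 3 gave 737 and C59S replicate 1 gave 33. Calls of members there are not given, since the choice of members used this contrast. List genes called there numbered 2 with no filter, 8 with DESeq2 and 0 to 6 without 1 library. For C59A against C59S (1012 genes), library totals gave 670, DESeq2 1721, voom 1768, log2(FPKM + 1) 663, log2(FPKM + 0.1) 670, no filter on FPKM 311, and leaving out 1 library 318 to 1006. Of the calls made with library totals 20.0% were higher in C59A than WT (56.8% with TMM) and 47.0% than C59S (56.7% with TMM). Members called there, Cyp27b1 left aside, were Slc34a3 with no filter and Vdr with DESeq2 or voom. List genes (5) numbered 14 with DESeq2, 17 with voom, 3 with FPKM and no filter, 8 with only the 2 groups compared, and 2 to 10 without 1 library. The share of all genes called is not given for most alternatives, so nothing is read from their counts of members or list genes. Ncor1 also lost its call with library totals or no filter, Slc17a1 with library totals, Dusp6 with only the 2 groups compared or on FPKM, and Lctl (C59A against C59S) and Slc17a1 on FPKM with no filter. The causes were not tested.

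With the replicate block in the fit of 9 libraries, list genes called were 9 in C59A against WT and 8 in C59A against C59S, and genes called were 1004, 0 and 972 in C59A against WT, C59S against WT and C59A against C59S. The paired fit of C59S and WT alone, with the replicate block, called 638 genes and 7 list genes. Same-numbered libraries of C59A and WT (0.01, -0.09 and 0.05) or of C59A and C59S (-0.09, -0.29 and 0.05) did not deviate together.

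Differences near 0 changed sign. For Vdr in C59A against WT voom gave 0.032, log2(FPKM + 1) 0.0083 with or without the filter, log2(FPKM + 0.1) 0.0090, and leaving out 1 library -0.10 to 0.10. For Slc20a2 there, library totals gave -0.0015. For Pth1r there, DESeq2 gave 0.00015, voom 0.025 and leaving out 1 library -0.15 to 0.18, and for Slc9a3r1 leaving out 1 library gave -0.23 to 0.16. In C59S against WT, Fgfr1 was 0.0033 with log2(FPKM + 1) with or without the filter and 0.0036 with log2(FPKM + 0.1), and -0.040 to 0.019 without 1 library, and Slc9a3r1 was -0.39 to 0.0030. Slc34a1 in C59A against C59S was -0.011 to 0.27. Of the 10 members Cyp27b1 had the fewest reads, 57 to 93 per C59S library.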
